A study of Mus musculus with 2 samples.

Results

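Gja1, Gja4 and Gjc1 are the genes of connexins 43, 37 and 45, and their transcripts were followed by age and by position in mouse ovary sections. They were chosen by symbol and are 3 of the 22204 genes listed in at least 1 of the 2 sections. Slide-seq, which lays a tissue section on an array of barcoded beads of known position, had been run on polyA RNA of C57BL6/J females under a study title that names ovarian inflammaging. One section came from an old female of about 14 months (replicate 1) and 1 from a young female of 2 months (replicate 3). The labels name no treatment and no altered allele for either, and these sections are also called the old and the young ovary. Per the labels' protocols, sections of frozen ovary were 10 µm thick, came from 2 females of each age and were picked where several oocytes lay in the same plane, and the remaining sections were not analysed here. The old section gave 2348768 counts from 10267 beads (median 125 a bead), and the young section 5158314 counts from 21403 beads (median 153 a bead). No bead barcode was shared by the sections.

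Connexins assemble into hexamers, and hexamers of neighbouring cells dock to form gap junction channels that pass ions and small molecules. In mouse follicles connexin 43 couples granulosa cells to each other, while connexin 37 sits in the junctions between the oocyte and the granulosa cells that reach it through the zona pellucida. Granulosa cyclic GMP reaches the oocyte through these channels and holds it in meiotic arrest. Connexin 37 is also a protein of arterial endothelium, and connexin 45 is known from smooth muscle and from the conduction system of the heart.

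In the GRCm38.p6 annotation of RefSeq, which is the assembly behind the mm10 build of the counts, Gja1 lies at chr10:56377300-56390419, Gja4 at chr4:127311420-127314039 and Gjc1 at chr11:102799477-102819686. No other gene of that annotation overlaps any of the 3. The 250 bases before the start of the Gja1 gene (chr10:56377050-56377299, plus strand) and of the Gja4 gene (chr4:127314040-127314289, minus strand) are printed because these genes were found in different places in the sections. Both sequences are RefSeq's, 5′ to 3′, with capitals for matches to the motifs searched.
Gja1: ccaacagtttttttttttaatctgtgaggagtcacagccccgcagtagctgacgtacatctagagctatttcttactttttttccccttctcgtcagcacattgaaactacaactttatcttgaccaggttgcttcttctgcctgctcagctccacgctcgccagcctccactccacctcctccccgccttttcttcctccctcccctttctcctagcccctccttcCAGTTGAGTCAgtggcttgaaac
Gja4: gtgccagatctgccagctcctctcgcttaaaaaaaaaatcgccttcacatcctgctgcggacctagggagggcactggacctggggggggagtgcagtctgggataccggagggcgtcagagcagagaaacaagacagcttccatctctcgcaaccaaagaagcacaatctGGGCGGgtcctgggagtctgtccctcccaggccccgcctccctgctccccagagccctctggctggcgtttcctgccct
The motifs were searched on both strands. The AP-1 motif TGANTCA was found in the Gja1 sequence as TGAGTCA, starting 19 bases before the gene start, and 6.75% of 32851 RefSeq promoter sequences of this length hold it. The E-box CANNTG was found there as CAGTTG, starting 23 bases before the gene start and overlapping the AP-1 match, and 66.2% of the promoters hold one. The Gja4 sequence holds the GC box GGGCGG, which starts 79 bases before the gene start and is found in 32.7% of the promoters. Neither sequence holds the TATA box TATAAA (12.4% of promoters) or the NR5A site CAAGGTCA (1.33%). Gjc1 was not among the promoter sequences used.

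Over the whole section, Gja1 and Gja4 stood lower in the old section than in the young one, and Gjc1 stood at nearly the same level. Counts were summed over all beads and scaled to the total of the section (CPM). Gja1 had 1688 counts in the old ovary and 18957 in the young ovary, or 718.7 and 3675 CPM. The old/young ratio was 0.196, with a 95% interval of 0.186 to 0.206. Gja4 was scarce throughout, with 11 counts in the old ovary and 73 in the young ovary. Its levels were 4.68 CPM (2.34 to 8.38) in the old ovary and 14.2 CPM (11.1 to 17.8) in the young ovary, a ratio of 0.331 (0.158 to 0.628). Gjc1 had 65 counts in the old ovary and 145 in the young ovary, or 27.7 and 28.1 CPM, and the ratio of 0.984 (0.723 to 1.33) spans 1. All intervals cover counting error only, since each age had 1 library, and no test of age was made. Age cannot be told apart from the animal, the plane of the section or the library, nor can fewer cells of a type and less RNA per cell. Of 12586 genes with at least 20 counts in 1 section, 25.4% were lower in the old section by at least 1.5-fold and 22.6% were higher, with a median ratio of 0.988. A difference past 1.5-fold was thus common among genes.

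The cell type lists of the sections differed in the same comparison. The oocyte list, with genes of the zona pellucida and the egg's stores, had 784 counts in the old ovary and 18678 in the young ovary, a CPM ratio of 0.0922. The granulosa list, whose genes include inhibin subunits and follistatin, had 4616 and 35407 counts, a ratio of 0.286. The luteal list, whose genes include the receptors for prostaglandin F and prolactin, had a ratio of 1.50, and the blood endothelium list of 1.46. Set against these lists, the difference in Gja1 was smaller than 1.5-fold for the granulosa list and larger than that for the luteal list, and for Gja4 the direction turned. Gja1 had 36.6 counts for each 100 of the granulosa list in the old ovary and 53.5 in the young ovary, a ratio of 0.683 (0.649 to 0.718). This value depends on the genes listed, whose own old/young ratios ran from 0.0149 for Grem1 through 0.197 for Inha to 1.48 for Nr5a2. For each 100 of the luteal list it had 16.4 in the old ovary and 126 in the young ovary, a ratio of 0.130 (0.124 to 0.137). Gja4 had 1.40 counts for each 100 of the oocyte list in the old ovary and 0.391 in the young ovary, a ratio of 3.59 (1.72 to 6.81) that rests on 11 old counts. Of these, 8 lay outside the oocyte patches described further on, where the ratio was 5.19 (2.00 to 12.1), and inside the patches, on 3 old and 51 young counts, it was 1.67 (0.334 to 5.17). For Gjc1 the counts for each 100 of the stromal fibroblast list were 3.09 in the old ovary and 3.77 in the young ovary, a ratio of 0.818 (0.601 to 1.10).

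The other connexins and pannexins were close to the limit of detection. Panx1, a pannexin gene whose product forms channels that open to the cell's outside, had 38 counts in the old ovary and 56 in the young ovary, a ratio of 1.49 (0.960 to 2.29). Of 23 family genes, 5 had at least 20 counts in 1 section, and of these 2 were lower by at least 1.5-fold in the old section and none was higher. The lower ones were Gja1 and Gja4, and of all genes 25.4% were lower and 22.6% higher. Without Gja1, Gja4 and Gjc1, 2 family genes had that many counts. Neither was higher or lower by that size, with a median ratio of 1.27. Another 9 genes (Gja3, Gja5, Gja6, Gjb1, Gjb2, Gjc3, Gjd3, Panx2 and Panx3) had at most 1 count in the old ovary and at most 6 in the young ovary. Gja5, the gene of the arterial connexin 40, was the only one of these 9 listed in the old section. The remaining 9 family genes were listed in neither section, where the limit that a count of 0 allows, taken as 3 counts of the total, is 1.28 CPM in the old ovary and 0.582 CPM in the young one.

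Gja1 was spread over many beads and Gja4 over few. On the old array 1178 beads carried a Gja1 count, with at most 10 on a bead, and in the young section 6681 beads did, with at most 43. After each bead was thinned to 100 counts, which left out 4515 old and 7867 young beads below that depth, 6.07% of 5752 old beads and 23.3% of 13536 young beads held Gja1. Gja4 was found on 11 old and 66 young beads, with at most 1 and 2 counts, and Gjc1 on 60 old and 140 young beads, with at most 3 on a bead in either section. Gja4 therefore shows where the transcript was met, and its level at any 1 place rests on a handful of counts.

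**Figure D1:**
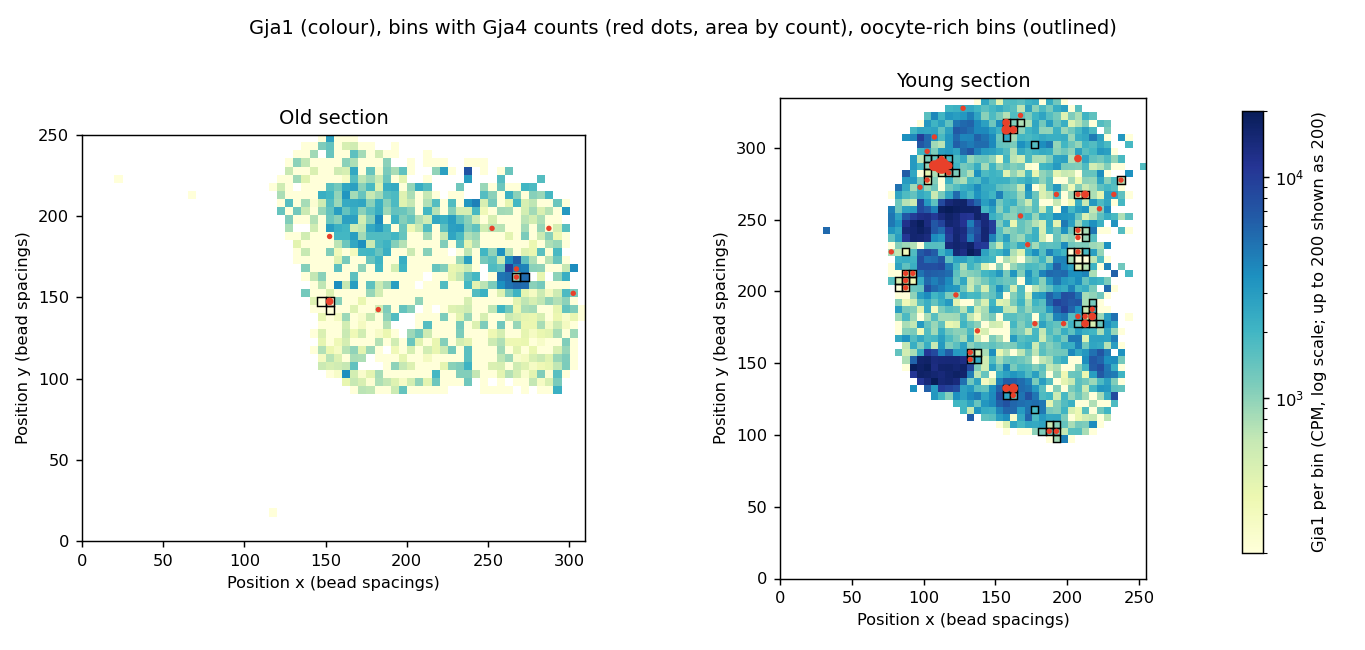
Maps of the old section (left) and the young section (right) in bins of 5 bead spacings, with Gja1 as colour (CPM, log scale), bins with Gja4 counts as red dots sized by count, and oocyte-rich bins outlined; both axes are positions in bead spacings. In the young section the darkest Gja1 areas are broad and lie apart from the outlined bins, which hold most red dots, while in the old section Gja1 is dark over a luteal-rich area and around 1 of 2 oocyte patches.

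To place the transcripts, each section was cut into square bins of 5 bead spacings, a spacing being the median distance from a bead with counts to its nearest neighbour. At least 500 counts were held by 908 old and 1338 young bins. A bin can hold several cells of different types, so bins are named by the genes that are high in them. The Gja1 level of these bins had a median of 404 CPM and a highest value of 9887 CPM in the old section, and of 1747 and 21201 CPM in the young section. No Gja1 was counted in 366 old and 101 young bins. Bins with 10 or more Gja1 counts and a share of 1% or more for Gja1 were absent from the old section and formed 2 areas of 54 and 31 bins in the young section, as the maps of both sections show. These 85 bins held 40.6% of the young section's Gja1 and 10.1% of all its counts. In them the granulosa list stood at 37763 CPM, against 3406 CPM in the rest of the section, and the oocyte list at 125 CPM, against 4012 CPM.

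Granulosa genes and Gja1 shared their place in the young section and much less so in the old one. The bins were ranked by the CPM of each marker list, none of which holds a connexin studied here, and the highest 20% were set against the others. Ranks were taken within each section, so high bins of the sections were not matched in their list level. The granulosa list stood at 1965 CPM over the old section and 6864 CPM over the young one. Its high bins held 61.8% of its counts in the old ranked bins and 78.1% in the young ones. The old section had 848 CPM of Gja1 in the granulosa-high bins and 669 CPM in the other bins, a ratio of 1.27 (1.14 to 1.40). This is below the 1.5-fold size that 13.1% of 10537 genes exceeded upwards in that comparison. The young section had 8937 CPM of Gja1 in the granulosa-high bins and 1766 CPM in the other bins, a ratio of 5.06 (4.91 to 5.21), where 10.4% of 12401 genes were higher by at least 1.5-fold. The old ratio ranged from 0.990 to 1.91 when 1 quadrant of the section was left out, with the lowest value without the quadrant of high x and high y and the highest without that of low x and high y. Bins are not replicates, so no test was made and the difference between the sections was not tested.

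Single granulosa genes gave the same picture in the young section and a mixed one in the old section. In the young section the Gja1 ratio was 4.54 in bins high in Inha, the inhibin alpha subunit gene, 4.77 in bins high in Fst, the gene of the activin-binding protein follistatin, and 4.30 in bins high in the aromatase gene Cyp19a1. It was also 3.96 for Inhba, the activin beta A subunit gene. In the old section the ratio was 2.34 for Inha and 1.55 for Serpine2, a protease inhibitor gene, but 1.07 (0.968 to 1.19) for Fst and 0.926 (0.833 to 1.03) for Nr5a2, a nuclear receptor gene used in granulosa and luteal cells. Inhba had 182 counts and Cyp19a1 4 counts in the whole old section.

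Of the marker lists, the luteal one gave the highest Gja1 ratio in the old section, although single places stood higher, among them the bins high in Inha at 1336 CPM and the beads at 2.5 to 5 spacings from oocyte-rich bins at 2698 CPM. Over the 908 old bins the correlation of Gja1 with the granulosa list was 0.30 and with the luteal list 0.20, given as a description. Gja1 in the old section had 1295 CPM in the luteal-high bins and 585 CPM in the other bins, a ratio of 2.22 (2.00 to 2.45), where 11.8% of genes were higher by at least 1.5-fold. Gja1 in the young section had 1512 CPM in the luteal-high bins and 4161 CPM in the other bins, a ratio of 0.363 (0.343 to 0.384), where 26.8% of genes were lower by that size and 13.2% higher. The old ratio came from 1 area. Without the quadrant of low x and high y, which held 51.1% of the old luteal-list counts and 36.8% of the old Gja1 counts, it was 1.00 (0.846 to 1.19). Within the list, the old Gja1 ratio was 2.10 for Sfrp4, a secreted Wnt modulator gene, and 2.02 for the prolactin receptor gene Prlr, but 0.893 (0.791 to 1.01) for Akr1c18, the gene of the enzyme that inactivates progesterone. In the young section it was 0.368 for Sfrp4 and 0.408 for Akr1c18, and 1.23 (1.19 to 1.27) for Prlr.

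Taking both rankings at once separated these places. Old bins high in luteal genes alone had 1265 CPM of Gja1 (1159 to 1378), those high in granulosa genes alone had 803 CPM (736.5 to 874), and those high in neither had 461 CPM (423 to 501). The 18 old bins high in both had 1614 CPM (1240.2 to 2065). Young bins high in luteal genes alone had 1487 CPM (1408 to 1569), those high in granulosa genes alone had 8979 CPM (8821 to 9140.2), and those high in neither had 1854 CPM (1804 to 1905). The luteal-only levels of Gja1 thus lay closer together in the old and the young section than the granulosa-only levels did. These bins were ranked within each section and were not matched between sections in granulosa or luteal list level. As a share of the section's Gja1, bins high in granulosa genes alone held 32.3% in the old ovary and 64.8% in the young one, and bins high in luteal genes alone held 31.3% and 7.02%.

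**Figure D2:**
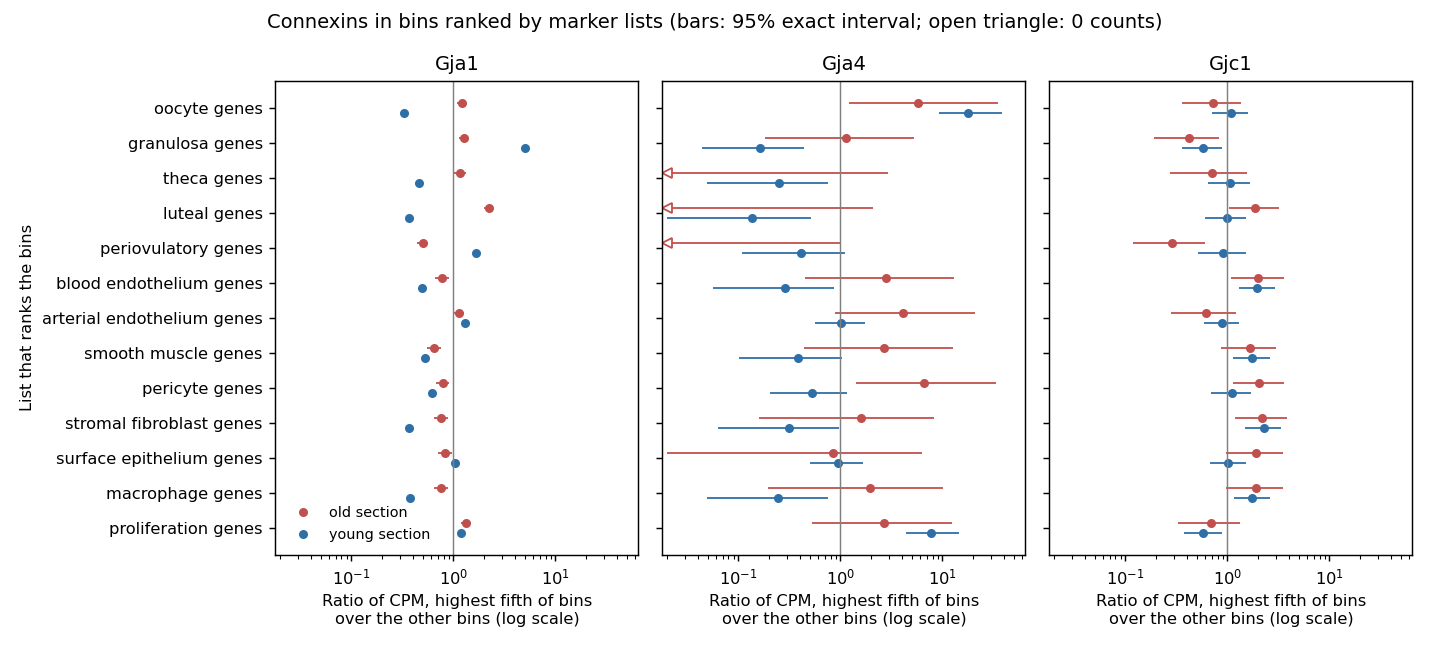
Ratio of CPM in the highest 20% of bins over the other bins (log axis) for Gja1 (left), Gja4 (middle) and Gjc1 (right), with bins ranked by each marker list on the vertical axis; old section in red above young section in blue, bars are exact 95% intervals of counting error and open triangles mark 0 counts in the high bins. Gja1 reaches 5.06 in granulosa-high bins of the young section and 2.22 in luteal-high bins of the old one, Gja4 reaches 17.9 in oocyte-high bins of the young section, and Gjc1 lies above 1 for stromal fibroblast genes in both.

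In most of the other lists' high bins Gja1 was below its level in the remaining tissue. Above it in both sections were the bins high in proliferation genes, with ratios of 1.33 (1.19 to 1.48) in the old ovary and 1.18 (1.14 to 1.21) in the young one, and those high in arterial endothelium genes, with 1.13 (1.01 to 1.26) and 1.30 (1.26 to 1.34). Surface epithelium gave 0.829 (0.707 to 0.968) and 1.03 (1.00 to 1.07). In bins high in periovulatory genes, which are led by the matrix protease gene Adamts1 and were counted 3696 times in the old ovary and 154 times in the young ovary, Gja1 had 433 CPM in the old section, against 869 CPM in the other bins. That ratio was 0.498 (0.440 to 0.562), where 25.7% of genes were lower by at least 1.5-fold. The young ratio for these genes was 1.68 (1.62 to 1.74), where 6.83% of genes were higher by that size, but it was 0.918 after bins were thinned to 500 counts. In the stromal fibroblast-high bins the Gja1 ratio was 0.760 (0.653 to 0.882) in the old ovary and 0.369 (0.345 to 0.394) in the young ovary, and 20.4% of young genes were lower by at least 1.5-fold. Blood endothelium gave 0.774 and 0.493, smooth muscle 0.653 and 0.524 and macrophages 0.760 and 0.372 in the old and the young section. By that size, 20.8%, 21.1% and 20.3% of young genes were lower in these 3 comparisons, and 17.1% of old genes for smooth muscle. In theca-high bins the ratio was 1.16 (1.01 to 1.32) in the old ovary and 0.463 (0.438 to 0.488) in the young ovary. That size was reached downwards by 27.4% of young genes. The young theca value turned to 1.25 without Aldh1a1, which supplied 32140 of the list's 34517 young counts, and the old value was 0.898 (0.665 to 1.20) in bins thinned to 500 counts.

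Around oocytes the young section showed Gja1 low inside and rising outward, with Gja4 the reverse. Oocyte-rich bins were those with 10 or more counts of oocyte genes and a share of 1% or more for them, and adjoining ones formed a patch. There were 2 patches of 5 bins in the old ovary and 14 patches of 66 bins in the young ovary. In the old section Gja1 had 561 CPM inside the oocyte-rich bins, 1958 CPM at 0 to 5 bead spacings from them, 1573 CPM at 5 to 10, 469 CPM at 10 to 20 and 692 CPM beyond 20. The same rings of the young section had 863, 2698, 3582, 4218 and 4515 CPM. In both sections the oocyte-rich bins thus had less Gja1 than the ring next to them, and only in the young section did the level go on upwards with distance. The young granulosa list took the same course, with 2581, 3967, 4851, 7647 and 9415 CPM from the inside to beyond 20 spacings. The old granulosa list was highest next to the patches, with 2766, 3939, 3047, 1311 and 1947 CPM over the same rings.

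**Figure D3:**
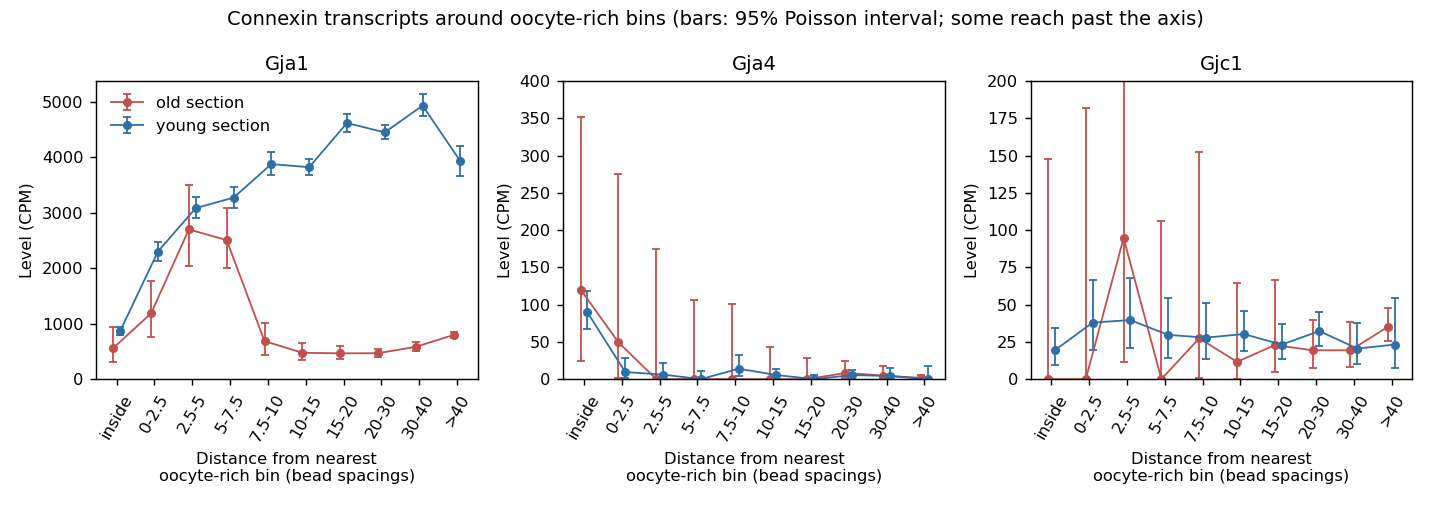
Level of Gja1 (left), Gja4 (middle) and Gjc1 (right) in CPM against distance from the nearest oocyte-rich bin in bead spacings, old section in red and young section in blue, with exact 95% Poisson intervals as bars. Young Gja1 climbs away from the oocyte-rich bins, old Gja1 peaks between 2.5 and 7.5 spacings, Gja4 is highest inside the oocyte-rich bins of both sections, and Gjc1 shows no trend beyond its intervals.

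Set as near over far (oocyte-rich bins and the first 5 spacings over everything beyond 20), Gja1 had 1432 CPM near and 692 CPM far in the old section, a ratio of 2.07 (1.66 to 2.55), where 26.3% of genes were higher by at least 1.5-fold. The young section had 1837 CPM of Gja1 near and 4515 CPM far, a ratio of 0.407 (0.388 to 0.426), where 17.9% of genes were lower by that size. The old ratio belonged to 1 of its 2 patches. Without the quadrant of high x and low y it was 0.406 (0.231 to 0.662), and without that of low x and low y it was 5.38 (4.29 to 6.68). The young ratio was 0.785 without the quadrant of low x and high y, which held 52.8% of the young Gja1 and 57.9% of the young granulosa-list counts.

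Patch by patch, Gja1 was higher in the surround, taken as 0 to 10 spacings, than inside in 2 of 2 old and 14 of 14 young patches. In the old patches the level was 55.1 CPM inside and 345 CPM around the first, and 1913 CPM inside and 2897 CPM around the second. The surround of the first old patch, which rested on 18 Gja1 counts, held 1016 CPM of the granulosa list and that of the second held 5413 CPM. Over the young patches the level inside ran between 301 and 1898 CPM with a median of 793 CPM, and the surround between 1064 and 6244 CPM with a median of 2629 CPM. The first old patch was below every young patch in both values, on 1 Gja1 count inside. The second was within the young range around. Inside, its 13 counts gave 1913 CPM, close to the highest young patch at 1898 CPM on 10 counts. Whether the old patches differ from the young ones was not tested. The highest young surround, at 6244 CPM, belonged to the patch whose surround was also highest in the granulosa list, at 13230.0 CPM, and in Inhba, at 5279.7 CPM. The next 2, at 5264 and 5106 CPM, had 6520.3 and 10212 CPM of the granulosa list, and 58.6 and 3069 CPM of Inhba. The patch after these, at 4192 CPM, had 3631 CPM of the granulosa list and 381 CPM of Inhba, so the match was not close for every patch.

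**Figure D4:**
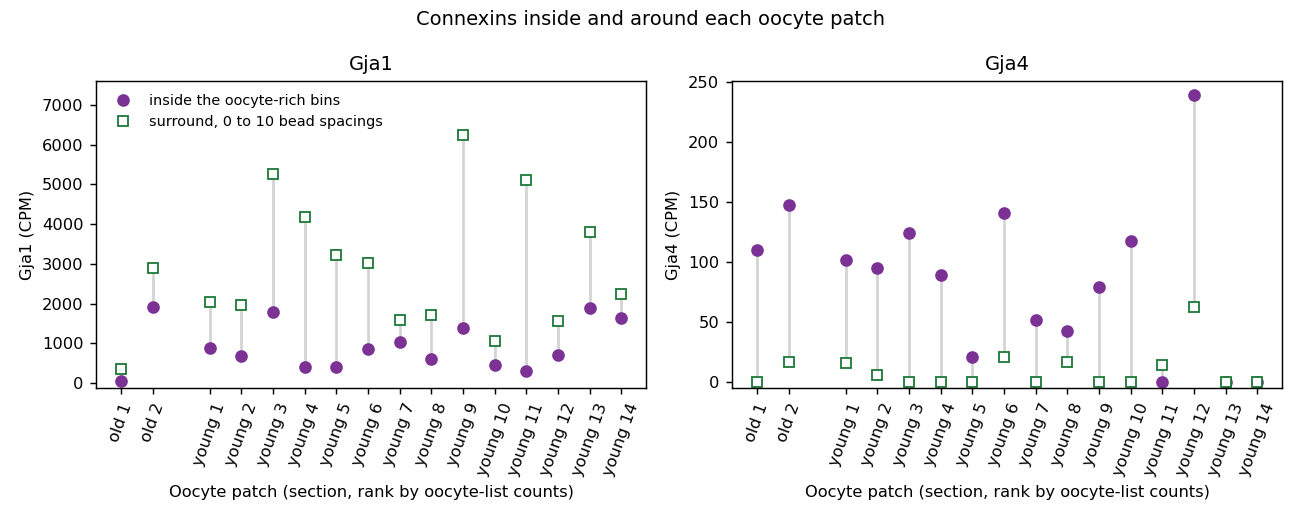
Gja1 (left) and Gja4 (right) in CPM inside each oocyte patch (filled circles) and in its surround of 0 to 10 bead spacings (open squares), for 2 old and then 14 young patches ordered by their oocyte-list counts. Every Gja1 square lies above its circle, and Gja4 circles lie above their squares in 2 of 2 old and 11 of 14 young patches.

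Gja4 followed the oocyte genes. Inside the oocyte-rich bins it had 3 counts in the old section, or 120 CPM (24.8 to 352), and 51 counts in the young section, or 89.6 CPM (66.7 to 118). Beyond 20 spacings it had 7 counts or 3.51 CPM (1.41 to 7.23) in the old ovary and 8 counts or 4.47 CPM (1.93 to 8.81) in the young ovary. The intervals of the level inside the oocyte-rich bins overlapped between the sections, and the old section had far fewer such bins. The ratio of inside to beyond 20 spacings was 34.3 (5.72 to 150) in the old ovary and 20.0 (9.44 to 48.9) in the young ovary, where 28.1% and 26.7% of genes were higher by at least 1.5-fold. Near over far, it was 17.2 (3.69 to 67.6) in the old ovary and 10.3 (4.89 to 25.1) in the young ovary. The oocyte list itself had 21209 CPM inside and 82.3 CPM beyond 20 spacings in the old section, and 26421 and 356 CPM in the young section. The share of far Gja4 that came with such scattered oocyte transcripts was not tested.

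Most Gja4 beads inside the patches also held oocyte transcripts, as did most beads there, since the patches were chosen by oocyte counts. Of the old Gja4 beads, 3 of 3 inside oocyte-rich bins also held an oocyte-list count, and outside 1 of 8 did. Of the young Gja4 beads, 43 of 45 inside and 6 of 21 outside did. Among all beads inside, 64.6% of 48 old and 77.4% of 1041 young beads held an oocyte-list count, and outside 2.12% and 9.72% did. Bead depth was not matched in these counts. Of the Gja4 beads, 1 of 3 inside and 2 of 8 outside held a count of the blood or arterial endothelium list in the old section, and 9 of 45 and 6 of 21 in the young section. Among all beads, 8.33% of old and 10.2% of young ones inside the patches did, and 9.18% and 7.62% outside. Gja4 was counted in 2 of 2 old patches (2 counts and 1 count) and in 11 of 14 young patches. The young patch with the most oocyte-list counts gave 18 of the Gja4 counts, and the other young patches gave at most 7 each. The 3 young patches without Gja4 were single bins.

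Across all bins, Gja4 was higher in oocyte-high bins in both sections. In the young section it was scarce in bins high in several other lists, granulosa and luteal among them. In the oocyte-high bins it had 10.1 CPM (6 counts) in the old section, against 1.76 CPM (3 counts) in the other bins, a ratio of 5.71 (1.22 to 35.3), where 7.91% of genes were higher by at least 1.5-fold. These 181 old bins held all oocyte-list counts of the ranked bins, so 1 such count was enough to place a bin among them. The young level was 50.3 CPM, against 2.81 CPM, a ratio of 17.9 (9.33 to 37.9), where 20.1% of genes were higher by that size. Gja1 ran the other way in the young oocyte-high bins, with a ratio of 0.326 (0.310 to 0.342), where 17.6% of genes were lower by at least 1.5-fold, and had 1.20 (1.08 to 1.34) in the old ones. In the young section Gja4 had ratios of 0.165 (0.0436 to 0.442) in granulosa-high, 0.137 (0.0163 to 0.515) in luteal-high and 0.284 (0.0570 to 0.865) in blood endothelium-high bins, and of 1.02 (0.569 to 1.76) in arterial endothelium-high bins. Such low young values were not particular to these lists. Theca gave 0.248 (0.0498 to 0.755), macrophages 0.245 (0.0493 to 0.748), stromal fibroblasts 0.316 (0.0636 to 0.964) and smooth muscle 0.385 (0.102 to 1.03). Arterial endothelium aside, between 20.3% and 27.4% of young genes were lower by at least 1.5-fold in these comparisons. The old ratios rest on 9 counts. They were 1.12 (0.182 to 5.26) in granulosa-high bins with 3 of the counts, 2.78 (0.451 to 13.0) in blood endothelium-high bins with 3, where 13.9% of genes were higher by at least 1.5-fold, and 4.13 (0.889 to 20.8) in arterial endothelium-high bins with 5, where 8.91% were. In the old section all 9 Gja4 counts in bins of at least 500 counts lay outside the luteal-high, the periovulatory-high and the theca-high bins. With so few counts the intervals of these ratios still reached 2.08, 1.02 and 2.93, so each spans 1. Bins high in pericyte genes held 5 of the 9, a ratio of 6.57 (1.41 to 33.1), where 12.0% of genes were higher by at least 1.5-fold. The young pericyte ratio was 0.531 (0.205 to 1.16), where 16.6% were lower. In bins high in proliferation genes Gja4 had a ratio of 2.66 (0.528 to 12.4) in the old ovary and 7.77 (4.38 to 14.5) in the young one, where 11.9% and 22.0% of genes were higher.

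Gjc1 was not higher where oocyte or granulosa genes were high. Its ratio was above 1.5 in both sections for the stromal fibroblast, blood endothelium, smooth muscle and macrophage lists. In the stromal fibroblast-high bins it had 51.2 CPM in the old section, against 23.6 CPM in the other bins, a ratio of 2.17 (1.18 to 3.81), and 55.4 CPM in the young section, against 24.4 CPM, a ratio of 2.27 (1.50 to 3.34). By at least 1.5-fold, 15.4% of old and 12.7% of young genes were higher in that comparison. In the blood endothelium-high bins the ratios were 2.01 (1.08 to 3.57) in the old ovary and 1.96 (1.29 to 2.90) in the young one, where 13.9% and 11.7% of genes were higher. Smooth muscle gave 1.65 (0.858 to 2.99) and 1.74 (1.13 to 2.61), and macrophages 1.91 (0.974 to 3.50) and 1.76 (1.17 to 2.60). In these, 14.7% and 11.6% of genes were higher for smooth muscle and 15.1% and 11.8% for macrophages. Other vessel genes did not give this in both sections. Arterial endothelium gave 0.612 (0.278 to 1.21) in the old ovary and 0.880 (0.583 to 1.30) in the young one. Pericytes gave 2.06 (1.12 to 3.62), where 12.0% of genes were higher, and 1.10 (0.697 to 1.69). Surface epithelium gave 1.90 (0.971 to 3.50) and 1.02 (0.679 to 1.51). In granulosa-high bins Gjc1 was lower in both sections, at 0.416 (0.189 to 0.826) in the old ovary and 0.572 (0.356 to 0.885) in the young one, where 18.6% and 24.3% of genes were lower by that size. Luteal-high bins gave 1.86 (1.04 to 3.23) in the old ovary and 0.980 (0.610 to 1.52) in the young one. Near over far from the oocyte patches, it had 1.04 (0.123 to 3.92) in the old section on 2 near counts and 1.06 (0.672 to 1.66) in the young section. After bins were thinned to 500 counts the young stromal, blood endothelium, smooth muscle and macrophage values were all below 1 with wide intervals, so these places are uncertain.

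The genes whose pattern was most like that of Gja1 were granulosa genes in the young section. Likeness was Pearson's correlation of log2(CPM + 1000) over bins, given as a description, since bins share a library, depth and neighbours. Over 908 old bins and 2690 genes ranked, the 5 most alike were Hsd17b7, a gene of cholesterol synthesis, at 0.35, Cyb5a, the gene of cytochrome b5, at 0.31, Scd2, a fatty acid desaturase gene, at 0.28, Inha at 0.27 and Cst8, a cystatin gene, at 0.26. Over 1338 young bins and 5383 genes ranked, they were Fst at 0.68, Inhba at 0.65, Inha at 0.64, Nr5a2 at 0.61 and Foxo1, a forkhead factor gene, at 0.61. Inha was the 1 gene in both sets of 5. For the scarce members the correlations were weak and are no finding. The gene most like Gja4 was Surf1 at 0.16 in the old section, followed by Ldhb, Anapc7, Cox7a2 and Itgb5, and Chek1 at 0.33 in the young section, followed by Pla2g4c, Bmp15, Ooep and Eif4e1b. The gene most like Gjc1 was Ube2q1 at 0.18 in the old section, followed by Wipi2, Arid1b, Rab10 and Preb, and Igfbp5 at 0.13 in the young section, followed by Klhl5, Znhit1, Sod2 and Cct2.

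Most genes that work with gap junctions differed by less than 1.5-fold between the sections. Of 16 genes for junction partners and turnover, 15 were measured (at least 20 counts in 1 section), 3 were higher by at least 1.5-fold in the old section and 1 was lower, with a median ratio of 1.22. Beside this, 22.6% of all genes were higher and 25.4% lower, with a median of 0.988, so the share of higher genes was near that background. The share of lower genes, 1 of 15, was below it, a difference that was not tested. Among the higher ones were Cdh2, the N-cadherin gene, at 3.80 (3.03 to 4.79) and Csnk1d, a casein kinase gene, at 1.80 (1.59 to 2.05). The lower one was Nedd4, the gene of a ubiquitin ligase that binds connexin 43, with 552.6 CPM in the old ovary and 1773 CPM in the young ovary, a ratio of 0.312 (0.294 to 0.330). Next lowest were Tsg101, a gene of endosomal sorting, at 0.678 and Ctnna1, the alpha catenin gene, at 0.727. Beta-catenin, from Ctnnb1, had a ratio of 0.905. Within the sections Cdh2 went with the granulosa genes, with a ratio of 2.83 (2.14 to 3.77) in old and 3.10 (2.14 to 4.51) in young granulosa-high bins.

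Of 16 genes of the signalling that keeps oocytes in meiotic arrest, 15 were measured, 3 were higher and 6 lower in the old section by at least 1.5-fold, and the median ratio was 1.00. Over all genes 22.6% were higher and 25.4% lower, so the share of higher genes was near that background. The share of lower genes, 6 of 15, was above it, a difference that was not tested. The granulosa ligand gene Nppc, whose product C-type natriuretic peptide raises cyclic GMP, had 11 counts in the old ovary and 431 in the young ovary, a ratio of 0.0561 (0.0278 to 0.101). The gene of its receptor, Npr2, had a ratio of 0.313 (0.261 to 0.374), and Wee2, an oocyte kinase gene, had 5 and 207 counts, a ratio of 0.0530 (0.0170 to 0.126). In the young section Nppc, like Gja1, was higher in granulosa-high bins, with a ratio of 17.7 (13.4 to 23.8), and lower near the oocyte patches, at 0.211 (0.141 to 0.307). The higher genes were Prkg2, a cyclic GMP-dependent kinase gene, with 282 counts in the old ovary and 3 in the young ovary, a ratio of 206 (69.9 to 1007), the adenylyl cyclase gene Adcy3 at 2.30 (1.60 to 3.31) and Marf1, a meiosis regulator gene, at 2.15 (1.82 to 2.53). Prkg2 in the old section had a ratio of 3.86 (3.00 to 4.97) in granulosa-high and 0.0753 (0.0243 to 0.178) in luteal-high bins. The 2 most abundant genes, Gnas for the stimulatory G protein and Prkar1a for a protein kinase A subunit, had ratios of 1.47 and 1.00.

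Signals that pass between oocyte and granulosa cells were lower in the old section or showed less than 1.5-fold difference. All 16 genes were measured, 9 were lower by at least 1.5-fold and none higher, with a median ratio of 0.581, beside 25.4% lower, 22.6% higher and a median of 0.988 over all genes. The lowest were Bmp15, an oocyte growth factor gene, at 0.0501 (0.0323 to 0.0744), Fgf8, an oocyte ligand gene, at 0.0998 (0.0117 to 0.383) on 2 old counts, and Kit, the gene of the receptor for Kit ligand, at 0.209 (0.117 to 0.350). The highest were Hes1 at 1.40 (1.01 to 1.91) and Notch2 at 1.29 (0.998 to 1.65), a target and a receptor of Notch signalling, and the receptor gene Tgfbr1 at 1.31 (1.16 to 1.48). The abundant BMP receptor genes Bmpr1a and Bmpr2 had ratios of 0.700 (0.641 to 0.764) and 0.707 (0.642 to 0.777).

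Most genes of the filopodia by which granulosa cells reach the oocyte, called transzonal projections, were higher in and next to the oocyte patches than far away. Of 7 genes, all measured, 4 were lower by at least 1.5-fold in the old section and none higher, with a median ratio of 0.614, where 25.4% of all genes were lower. Myo10, the gene of a filopodial myosin, had a ratio of 0.445 (0.395 to 0.5001), Rdx, the radixin gene, of 0.574 (0.545 to 0.605) and Fscn1, the gene of the actin bundler fascin, of 0.576 (0.418 to 0.783). The highest were Msn, the moesin gene, at 1.25, Diaph1, a formin gene, at 0.961 and the small GTPase gene Cdc42 at 0.831. Near over far, 5 of 7 were higher by at least 1.5-fold in each section, with medians of 2.05 in the old ovary and 1.94 in the young one beside 0.951 and 0.996 for all genes, of which 26.3% and 22.7% were higher. Rdx had 2.02 (1.63 to 2.48) in the old ovary and 2.39 (2.25 to 2.53) in the young one, and Myo10 3.38 (2.25 to 4.90) and 2.56 (2.27 to 2.89). Near takes in the oocyte-rich bins themselves, so transcripts of oocytes and of granulosa cells were not told apart. In granulosa-high bins 1 of 7 was higher by that size in each section, and 1 old and 2 young were lower. The medians there were 1.12 in the old ovary and 0.796 in the young one. Of all genes 13.1% and 10.4% were higher there, and 18.6% and 24.3% lower.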

How the data were processed

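Both sections were processed alike. The authors deposited whole-number counts per gene and bead, and bead positions without a stated length unit. Per the submitters' processing notes the build was mm10. Which aligner, counter, annotation and strand setting were used, and if molecules or reads were counted, is not given in the sources used here, so reads shared between similar connexin genes could not be examined. The deposited tables hold no bead under 10 counts and no gene without a count, and a gene listed for 1 section was taken as 0 in the other.

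Counts were summed over beads or bins and scaled to CPM. Ratios carry exact conditional binomial (Clopper-Pearson) and levels exact Poisson 95% intervals, for counting error only; PCR copies are not independent molecules. Genes with at least 20 counts in 1 section, or in the section for contrasts within it, counted as higher or lower past 1.5-fold. Sites were square bins of 5 bead spacings (a spacing was 13.9 position units in the old ovary and 13.8 in the young one) with at least 500 counts. Bins were called high by rank in a marker list, only where they held a count of it. Doublets do not apply to beads, and no restriction to beads over tissue was made.

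No p-value was computed, as each age had 1 library. The steps were tested on simulated data. The genes studied and all lists were chosen with earlier results of these data known. Named were the 3 genes, family genes with at least 20 counts in 1 section, of each pathway list the 3 highest and 3 lowest ratios and the 2 most abundant measured genes, and the 5 genes most like each connexin; genes of the marker lists, Panx2 and Panx3, and the scarce connexins were named beside these after their values were seen. Some genes that this rule names are not reported here. Alternatives were other bins, thresholds, depths, scalings and quadrants left out. Python 3.11.15, numpy 2.4.6, scipy 1.17.1, pandas 2.3.3, matplotlib 3.10.9 and R 4.3.3 with edgeR 4.0.16, for trimmed-mean (TMM) factors alone, were used.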

Additional observations from a re-analysis of the deposited data

Results flagged for a closer look

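Gja1 lay on opposite sides of 1 in the old and the young section in 5 comparisons made within each section, counting those where neither 95% interval held 1. The differences between the sections were not tested, and each rests on 1 library a section. The luteal-high over other ratio was 2.22 in the old ovary and 0.363 in the young one, and the old value was 1.00 without the quadrant of low x and high y. The near over far ratio around oocyte patches was 2.07 in the old ovary and 0.407 in the young one, and the old value was 0.406 when the quadrant of high x and low y was left out. The oocyte-high over other ratio was 1.20 in the old ovary and 0.326 in the young one, and the old value was 1.03 in bins thinned to 500 counts and 1.05 when the quadrant of high x and low y was left out. The periovulatory-high over other ratio was 0.498 in the old ovary and 1.68 in the young one, where the list had 154 counts and the ratio was 0.918 in thinned bins. The theca-high over other ratio was 1.16 in the old ovary and 0.463 in the young one. Without the list's most abundant gene it was 2.11 in the old ovary and 1.25 in the young one, and the old value was 0.898 in thinned bins, 0.927 with the highest 10% of bins and 0.874 without the quadrant of low x and high y.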

How the results depend on the processing

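No paired analysis was possible because each age had 1 library and no result comes from a test, and for the same reason no replicate could be left out; quadrants of the sections were left out instead. Values are old/young, near over far and high over other ratios. Over 13 settings the old/young ratio lay between 0.164 and 0.248 for Gja1, 0.212 and 0.400 for Gja4 and 0.823 and 1.19 for Gjc1. For Gja1 it was 0.235 with equal weight per bin, 0.220, 0.164, 0.219 and 0.183 without the old quadrants of low x and low y, low x and high y, high x and low y, and high x and high y, and 0.207, 0.248, 0.184 and 0.171 without the young ones. Without the first 3 of these quadrants the Gja1 near/far ratio was 5.38, 2.67 and, reversed, 0.406 in the old section, and 0.331, 0.785 and 0.329 in the young section. Old near/far was 2.63 and 2.82 with bins of 3 and 8 spacings, 3.09 with bins thinned to 500 counts and 3.35 with the grid shifted by 0.5 bins; young near/far was 0.508 with bins of 8 spacings, 0.582 thinned, 0.429 shifted, 0.346 with beads of at least 200 counts and 0.456 and 0.385 with the looser and the stricter oocyte-rich bins. The Gja1 granulosa-high ratio was 1.45 and 1.02 (old, bins of 3 and 8), 4.85 (young, bins of 8), 1.81 old and 4.37 young thinned, 1.90 and 5.63 with the highest 10% of bins, 4.48 young with the highest 33%, 4.88 young with the grid shifted, 1.91 and 0.990 without the old quadrants of low x and high y and of high x and high y, and 4.78, 4.63, 5.49 and 4.76 without the young ones. The Gja1 luteal-high ratio was 1.97 old and 0.631 young thinned, 1.74 and 0.422 with the highest 33%, 0.420 young with the highest 10%, 0.399 young with bins of 8, 1.00 and 2.81 without the old quadrants of low x and high y and of high x and high y, 0.409 and 0.321 without the young ones of low x and low y and of high x and high y, and 0.428 young without Sfrp4, the most abundant luteal gene. Reversed were also Gjc1 in old macrophage-high bins with the grid shifted (0.821), young Gja1 in theca-high bins without the most abundant gene (1.25) and thinned in periovulatory-high bins (0.918), and, thinned, young Gjc1 in blood endothelium- (0.908), smooth muscle- (0.222), stromal fibroblast- (0.749) and macrophage-high bins (0.749); the cause was not tested. Gja4 near/far stayed between 8.94 and 27.1 old and 5.71 and 19.9 young. The grid shift, and the bins high in 1 list only, were chosen after seeing the data. For 3 Gja4 values, thinning to 500 counts left under 5 counts and none is given. Spearman's measure, thinning and bins of 8 spacings kept 3, 4 and 3 of the 5 genes most like Gja1 in the old section and 4, 3 and 3 in the young one. The scarcity of Gja4 and Gjc1 limits what depth allows.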

Other observations

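Some partners of the connexins, picked after their values were seen, were also uneven within the sections. In granulosa-high bins 13.1% of old and 10.4% of young genes were higher by at least 1.5-fold, and near over far 26.3% and 22.7% were. Bmpr1b, a BMP receptor gene, had a granulosa-high over other ratio of 3.44 (1.80 to 6.75) in the old ovary and 3.68 (2.91 to 4.67) in the young one, and Bmpr2 of 1.49 (1.25 to 1.77) and 3.79 (3.45 to 4.18). Fscn1 had 3.43 (1.92 to 6.25) in the old ovary and 3.04 (2.28 to 4.05) in the young one. The Notch ligand gene Jag1 stood near the oocyte patches, with a near over far ratio of 5.47 (2.22 to 11.7) in the old ovary and 7.25 (4.64 to 11.8) in the young one. Near the young patches Pde3a, the gene of the phosphodiesterase that degrades cyclic AMP in oocytes, had a ratio of 3.15 (2.00 to 5.08), and Panx1 of 2.78 (1.17 to 7.09) on 17 near and 9 far counts. In the old section Panx1 had 2 near counts and a ratio of 1.82 (0.212 to 7.12). Msn, whose list was mostly higher in and next to the oocyte patches, was higher in luteal-high bins. Its ratios there were 1.40 (1.09 to 1.79) in the old ovary and 4.15 (3.53 to 4.88) in the young one, where 11.8% and 13.2% of all genes were higher by at least 1.5-fold.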
